A study of Homo sapiens with 6 samples.

Results

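Some probe sets of an expression array cannot be tied to 1 gene, because the platform's annotation lists 2 or more gene symbols for them. They made up 1800 of the 54675 probe sets of this series, with the array's AFFX control probe sets left out of the count, and were chosen by that annotation alone and by no measured value. The other probe sets listed 1 symbol (41091), no symbol (11722) or were AFFX controls (62). Of the 1800, 1240 (68.9%) passed a filter on low signal and were tested, beside 33370 (61.0%) of all probe sets. The cells were MDA-MB-231, a mesenchymal triple-negative human breast cancer line, and 3 arrays came from cells that stably expressed an shRNA against MYOSIN10 (now MYO10, a motor protein of filopodia) and 3 from cells that stably expressed a scramble shRNA. Both lines were cultured in Leibovitz L-15 with FBS. The sources used here do not give the hairpin sequence, the number of clones or whether the numbers 1 to 3 mean separate cultures, so the p-values cover only the spread among these samples, possibly a technical one.

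A probe set reads a stretch of transcript through a group of short oligonucleotides, and the annotation can list several genes for it for different reasons. Recent duplicates, such as the inducible HSP70 genes, keep nearly the same messenger sequence. A microRNA or small nucleolar RNA can lie inside its host gene, also in an intron that the message lacks. A readthrough transcript joins 2 adjacent genes, and a pseudogene or an antisense transcript can overlap or copy a coding gene. A shared probe set can therefore measure a sum over several listed genes, but not every listed gene need contribute. The gene behind a difference can be named only where other probe sets list that gene alone. Names ending in _x_at mark probe sets with some oligonucleotides that match other sequences too, and names ending in _s_at mark those that match several transcripts.

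The DNA in front of some of the duplicated genes was also compared. It lies before the transcript that a probe set reads, and the transcripts themselves were not compared here. The sequences below are from RefSeq (GRCh38.p14), read on the strand of the gene and ending at the base before its annotated start. HSPA1A and HSPA1B, whose shared probe sets are described next, had 93.6% identity over the 250 bases before their starts. The capitals mark GAANNTTC, the core of a heat shock element, which lay 106 bases before the start of HSPA1A (chr6:31815343-31815542, plus strand) and 105 bases before that of HSPA1B (chr6:31827538-31827737, plus strand).
HSPA1A: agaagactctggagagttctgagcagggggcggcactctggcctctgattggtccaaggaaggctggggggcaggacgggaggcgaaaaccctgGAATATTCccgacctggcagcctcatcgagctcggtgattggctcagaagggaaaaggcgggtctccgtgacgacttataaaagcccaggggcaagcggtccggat
HSPA1B: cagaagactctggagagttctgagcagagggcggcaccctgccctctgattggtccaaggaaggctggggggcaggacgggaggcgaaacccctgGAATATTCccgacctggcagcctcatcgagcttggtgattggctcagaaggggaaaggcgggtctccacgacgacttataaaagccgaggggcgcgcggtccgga
These letters, which read the same on both strands, occurred in 5.78% of the 35116 upstream windows of 250 bases in the RefSeq table. HSPA1L starts 260 bases from HSPA1A on the opposite strand, so the windows of these genes overlap. The letters found 161 bases before the start of HSPA1L are the same stretch marked for HSPA1A, not a further one.

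Called members fell into 11 distinct gene lists. At a Benjamini-Hochberg adjusted p under 0.05 over all 33370 kept probe sets (limma), 14 of the 1240 shared probe sets were called changed, against 1.06% of all kept probe sets. That is 1.13% of the shared probe sets, a share near the background. Among them, 11 were higher with MYOSIN10 shRNA, against 0.692% of all kept probe sets called higher, and 3 were lower, against 0.366% called lower. An unadjusted p under 0.05 was reached by 169 shared probe sets (86 higher, 83 lower), against 13.2% of all, and the 2 groups of arrays did not overlap in 212, against 18.1% of all. The median log2 difference, MYOSIN10 shRNA minus scramble shRNA, was 0.00681 over the shared probe sets and -0.00195 over all kept ones. The median log2 signal was 8.67 over the shared and 7.84 over all kept probe sets, and the median SD within groups 0.189 and 0.214. Of the 14, 13 were at or above the filter value on all 6 arrays, and LRRC3 with LRRC3DN was so on the scramble arrays only. With no filter on low signal, 7 of the 14 were called. Without the trend of variance on signal limma called none of them, and 8.55% of the shared probe sets had an unadjusted p under 0.05.

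**Figure D1:**
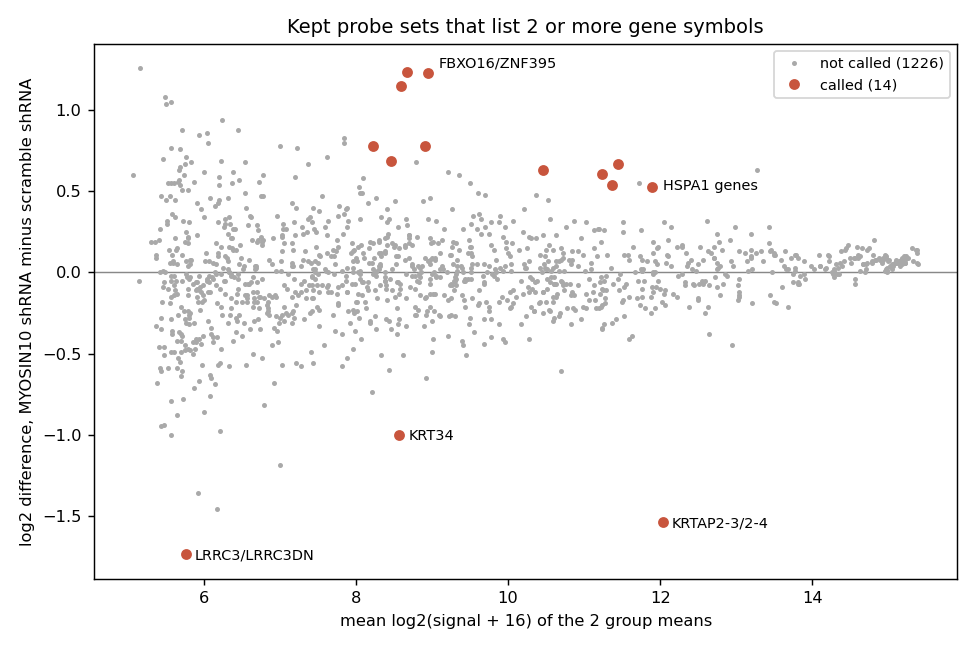
Difference between groups against mean signal for the 1240 kept shared probe sets, both on the log2(signal + 16) scale, 1 point per probe set, with the 14 called ones in red. The called points stand at the outer edge of the cloud at their signal, and the KRTAP2-3 and KRTAP2-4 probe set combines a high signal with a difference of -1.54.

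The targeted message was lower: the brightest MYO10 probe set, 201976_s_at, differed by -0.88 ± 0.172 (SE, n = 3 per group, limma adjusted p = 0.0318). Markers of the mesenchymal line (VIM, CD44, AXL, CAV1) lay at or above the 99.3rd percentile of every array, and CDH1 between the 1.12th and the 34.5th. The listed epithelial and receptor genes EPCAM (65.5th to 77.3rd percentile), ERBB2 (76.7th to 78.9th) and ESR1 (58.2nd to 64.9th) were not at the bottom of the scale. PTPRC of leukocytes, ADIPOQ and PLIN1 of adipocytes and CDH5 of endothelium lay at or below the 46th percentile on every array, while CD3E and PECAM1 reached the 57.8th and 63.6th. Correlations between arrays ran from 0.973 to 0.982. Without scramble array 2 the shared probe sets had 52 calls (4.19%, against 4.39% of all kept probe sets). Without each other array in turn they had between 4 and 10 (0.323% to 0.806%, against 0.177% to 0.806% of all).

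The inducible HSP70 genes rose by 1.44- to 1.53-fold. In RNA from a whole culture, a change in the share of cells that express a gene and a change per cell cannot be told apart. HSPA1A and HSPA1B encode the major stress-inducible HSP70 chaperone, which folds damaged proteins and is switched on by heat shock factor. All 3 shared probe sets that list them were called higher. Probe set 202581_at had log2 signals of 11.55, 11.80 and 11.53 on scramble arrays 1, 2 and 3 and 12.13, 12.19 and 12.13 on MYOSIN10 shRNA arrays 1, 2 and 3. The knockdown arrays sat close together above all scramble arrays, a rise of 0.53 ± 0.0893 (SE, limma adjusted p = 0.0160). Probe set 200799_at read 10.93, 11.24 and 11.10 with scramble shRNA and 11.72, 11.58 and 11.58 with MYOSIN10 shRNA, a rise of 0.54 ± 0.0973 (SE, limma adjusted p = 0.0221). Probe set 200800_s_at also lists HSPA1L, another gene of the same cluster, best known from testis. It read 10.69, 11.01 and 11.08 against 11.54, 11.46 and 11.60, again without overlap, and rose by 0.61 ± 0.107 (SE, limma adjusted p = 0.0192).

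Probe sets that list HSPA1L alone were dim and did not separate the groups: 210189_at differed by -0.03 ± 0.265 and 233694_at by -0.37 ± 0.376 (SE, limma adjusted p = 0.980 and 0.744). No probe set lists HSPA1A or HSPA1B alone, so the 2 genes cannot be told apart here. One-symbol probe sets of the neighbouring genes had smaller differences that did not pass: NEU1 0.32, LSM2 0.22 and SNHG32 0.22. The HSP70 calls depended on single arrays. Without scramble array 2 the 3 adjusted p-values were 0.00130 to 0.00810, and without MYOSIN10 shRNA array 2 they were 0.0380 to 0.0515. Without scramble array 3 they ran from 0.0483 to 0.110, and without MYOSIN10 shRNA array 1 or 3 or scramble array 1 from 0.0793 to 0.134.

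Other chaperone lists did not follow the HSP70 genes in 1 direction. Of 13 kept shared probe sets that list a heat shock or DNAJ gene, 3 passed (23.1%, against 1.06% of all kept probe sets). These 3 were the HSPA1A and HSPA1B probe sets, all higher. An unadjusted p under 0.05 was reached by 6 (46.2%, against 13.2% of all), 3 in each direction. The other 3 list DNAJ cochaperones, which stimulate the ATPase of HSP70. For TMEM135 and DNAJB6, 208810_at read 13.09, 13.26 and 13.14 against 12.62, 12.96 and 12.56 (-0.45, limma adjusted p = 0.0599), and 208811_s_at differed by -0.38 (0.0749). For the readthrough DNAJC25-GNG10 and DNAJC25, 226859_at differed by -0.40 (0.103). None of these passed, although their groups did not overlap. DNAJB6 alone, 209015_s_at, read 12.53, 12.64 and 12.65 against 12.08, 12.35 and 12.18 (-0.40, 0.0505), also without overlap and short of the threshold. The 4 probe sets that list HSPA8, the constitutive HSP70, with 2 snoRNAs of its introns differed by 0.00 to 0.08, and the 2 of the endoplasmic reticulum chaperone HSP90B1 with MIR3652 by 0.11 and 0.13. Families were matched by the letters of the symbol, which here also took in HSPG2 and the antisense DNAJC9-AS1. Among 142 kept probe sets that list 1 such symbol alone, 2 passed (1.41%, against 1.06% of all kept probe sets). Both were higher: DNAJC9 (0.61, limma adjusted p = 0.00365) and DNAJC6 (0.64, 0.0125).

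Genes of the hair keratins gave 2 of the 3 falls. KRTAP2-3 and KRTAP2-4 are adjacent genes for keratin-associated proteins, small cysteine-rich proteins that cross-link keratin in the hair shaft. Their shared probe set 1555673_at read 12.65, 12.90 and 12.86 with scramble shRNA and 11.42, 11.22 and 11.16 with MYOSIN10 shRNA. Every knockdown array lay more than 1 log2 unit below every scramble array, and the signal fell by 1.54 ± 0.0963 (SE, limma adjusted p = 1.88e-05), which is 2.90-fold lower. The call held without any single array (limma adjusted p 2.73e-05 to 0.000452). It ended without the trend of variance on signal (0.0606). The other probe set with the same 2 symbols, 220970_s_at, was below the filter at 4.09 to 4.41 on all 6 arrays, near the lowest value of 4 that the added 16 allows. Only 1 of the 2 probe sets with this gene list could therefore be tested, and no probe set lists KRTAP2-3 or KRTAP2-4 alone.

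The 2 KRTAP2 promoters were compared with gaps and, around TATAAA, without gaps, and these measures are not alike. With gaps, identity was 51.1% over the 250 bases before the starts and 42.9% over the nearest 50. It was 76.7% over 60 bases when the windows were set on TATAAA without gaps, where the TATAAA letters match by that choice. The capitals mark TATAAA, 28 bases before the annotated start of KRTAP2-3 (chr17:41060115-41060234, minus strand) and 58 bases before that of KRTAP2-4 (chr17:41065880-41065999, minus strand).
KRTAP2-3: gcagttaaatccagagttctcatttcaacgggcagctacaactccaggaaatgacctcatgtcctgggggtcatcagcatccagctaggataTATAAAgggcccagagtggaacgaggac
KRTAP2-4: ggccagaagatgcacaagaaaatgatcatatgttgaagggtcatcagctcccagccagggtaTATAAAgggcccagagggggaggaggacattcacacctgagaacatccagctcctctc
These letters were searched on both strands and occurred in 10.7% of the upstream windows.

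KRT34, a type I hair keratin of the keratin cluster on the same chromosome, shares probe set 206969_at with LOC100653049. It read 8.85, 8.86 and 9.49 with scramble shRNA and 8.38, 7.70 and 8.12 with MYOSIN10 shRNA. The groups were apart but their spread was wide (SD 0.367 and 0.345), and the signal fell by 1.00 ± 0.207 (SE, limma adjusted p = 0.0412). The call held only when scramble array 2 was left out (0.0171). It ended without any other array: MYOSIN10 shRNA array 1 (0.0597), 2 (0.0996) or 3 (0.136) and scramble array 1 (0.109) or 3 (0.200).

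Of 4 kept shared probe sets that list a keratin or keratin-associated gene, these 2 passed, both lower (50%, against 1.06% of all kept probe sets called). The others did not pass: KRTAP10-12 with KRTAP10-7 differed by 0.36 and MIR492 with KRT19P2 by -0.10. The match by symbol also took in KRTCAP2, KRTCAP3 and antisense entries such as KRT10-AS1. None of 39 kept probe sets that list 1 such symbol alone passed the limma test. An unadjusted p under 0.05 was reached by 7 (17.9%, against 13.2% of all kept probe sets). These 7 went both ways, 5 above and 2 below 0. Above 0 were the simple epithelial keratins KRT19 0.46, KRT8 0.34 and KRT18 0.30 (limma adjusted p = 0.0742, 0.0858 and 0.0891 for 201650_at, 209008_x_at and 201596_x_at) and the keratin-associated genes KRTAP11-1 1.34 and KRTAP13-1 1.05 (0.139 and 0.277), both dim and at or above the filter value on the MYOSIN10 shRNA arrays only. Below 0 were KRT10-AS1 -0.32 and the hair keratin KRT38 -1.37 (0.152 and 0.230). KRT7, another simple epithelial keratin, differed by 0.16, 0.04 and -0.01 in its 3 probe sets. Among the neighbours of KRT34, beside KRT38, KRT37 differed by -0.11, KRT33B by -0.46 and LOC101929774 by -0.12 and 0.31, and the neighbours of KRTAP2-3, KRTAP4-8 and KRTAP4-9, differed by -0.28 and -0.19.

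All 3 probe sets that list the neighbouring genes FBXO16 and ZNF395 rose, by 2.22- to 2.36-fold. ZNF395 is a zinc finger DNA-binding protein, and FBXO16 an F-box protein, a substrate adaptor of ubiquitin ligases. Probe set 223216_x_at read 8.19, 8.52 and 8.29 with scramble shRNA and 9.71, 9.43 and 9.57 with MYOSIN10 shRNA, a rise of 1.23 ± 0.135 (SE, limma adjusted p = 0.00180). Probe set 221123_x_at read 7.92, 8.25 and 7.98 against 9.13, 9.46 and 9.27 and rose by 1.24 ± 0.145 (0.00219). Probe set 232693_s_at read 8.04, 8.29 and 7.74 against 9.03, 9.33 and 9.14 and rose by 1.15 ± 0.160 (0.00627). In each of the 3, all knockdown arrays lay above all scramble arrays.

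Probe sets that list 1 of these genes alone were called for ZNF395 and not for FBXO16. Probe set 218149_s_at, which lists ZNF395 alone, read 9.74, 9.81 and 9.58 against 10.82, 10.69 and 10.79 and rose by 1.06 ± 0.101 (SE, limma adjusted p = 0.000594). A second ZNF395 probe set, 222536_s_at, differed by 0.28 ± 0.193 (0.591), and the FBXO16 probe set 228427_at, at 5.69 to 6.26 on all arrays, by -0.12 ± 0.319 (0.917). Another ZNF395 probe set, 232694_at, did not pass the filter, at 4.31 to 5.38. All 3 shared probe sets and 218149_s_at stayed called without any single array, with limma adjusted p-values of at most 0.0450. They lost the call without the trend of variance on signal (0.0950 to 0.149).

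Other neighbouring pairs rose through a shared probe set. THRIL is a long noncoding RNA next to BRI3BP, which encodes a membrane protein. Their probe set 231810_at read 10.13, 10.31 and 9.97 against 10.69, 10.85 and 10.76 and rose by 0.63 ± 0.108 (SE, limma adjusted p = 0.0170). The BRI3BP probe set 225716_at read 10.70, 11.09 and 10.71 against 11.60, 11.63 and 11.46 and rose by 0.73 ± 0.113 (0.00930). Both separated the groups. No probe set lists THRIL alone. The shared call held without scramble array 2 (0.00242) and ended without any other array (0.0557 to 0.109). The BRI3BP call ended without scramble array 1 (0.0704), scramble array 3 (0.0688) or MYOSIN10 shRNA array 1 (0.0619).

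PLD6, a phospholipase of the mitochondrial surface with a role in piRNA formation, and FLCN, the folliculin of nutrient signalling to mTORC1, share 227037_at. It read 8.36, 8.77 and 8.45 against 9.24, 9.38 and 9.29 and rose by 0.78 ± 0.137 (SE, limma adjusted p = 0.0198), with no overlap. The 4 probe sets that list FLCN alone differed by 0.14, 0.19, 0.84 and 1.18, and the PLD6 probe set by 0.02. None of these 5 passed (limma adjusted p 0.275 to 0.991). Of them, FLCN 1552664_at overlapped between groups, at 9.35, 9.61 and 9.31 against 9.54, 9.61 and 9.55, while the dim 243062_at did not. The shared call held without scramble array 2 (0.00232) and ended without any other array (0.0610 to 0.121).

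GTSE1, a microtubule-binding protein of the G2 and S phases, and TRMU, a mitochondrial tRNA modifying enzyme, share 204317_at. It read 8.13, 8.16 and 8.07 against 8.77, 8.88 and 8.78, with an SD of 0.042 and 0.0651, and rose by 0.69 ± 0.129 (SE, limma adjusted p = 0.0258). The 4 kept probe sets that list GTSE1 alone differed by 0.16 to 0.29, and the TRMU probe set 213634_s_at by -0.17. None passed (limma adjusted p 0.305 to 0.572). Another GTSE1 probe set, 229343_at, did not pass the filter, at 4.32 to 5.32. The shared call held without scramble array 2 (0.0143) and ended without any other array (0.0745 to 0.133).

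**Figure D2:**
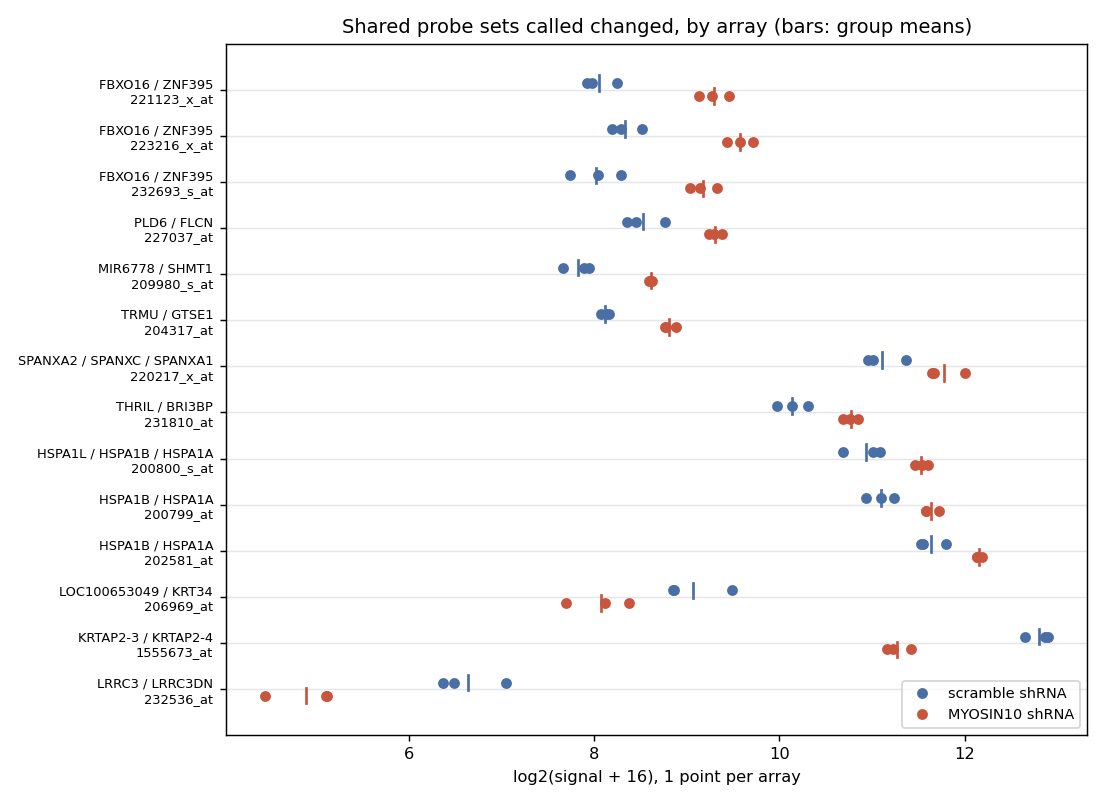
Log2(signal + 16) of the 14 called shared probe sets on each of the 6 arrays, 1 point per array, with bars at the group means. In every one the 3 MYOSIN10 shRNA arrays lie to 1 side of the 3 scramble arrays, from LRRC3 at the dim end to KRTAP2-3 and KRTAP2-4 at the bright end.

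SPANX genes, a young family on the X chromosome whose proteins belong to the sperm nucleus and to the cancer-testis antigens, had 3 shared probe sets. Probe set 220217_x_at, which lists SPANXA2, SPANXC and SPANXA1, read 10.95, 11.36 and 11.01 against 11.65, 11.67 and 12 and rose by 0.67 ± 0.126 (SE, limma adjusted p = 0.0271). Probe set 220922_s_at, which adds SPANXB1, read 12.73, 13.40 and 12.74 against 13.68, 13.42 and 13.64 (0.63, 0.0749). The third, 224032_x_at for SPANXA2 and SPANXA1, overlapped (0.45, 0.363). SPANXB1 alone, 220921_at, differed by 0.67 (0.102). All 4 differences were above 0, and scramble array 2 read highest of its group in the 3 shared probe sets. Without that array the adjusted p-values of the shared ones were 0.00235, 0.000363 and 0.00107. The call of 220217_x_at also held without MYOSIN10 shRNA array 2 (0.0467) and ended without MYOSIN10 shRNA array 1 (0.0723) or 3 (0.138) and scramble array 1 (0.163) or 3 (0.153).

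The SPANX promoters compared were alike: SPANXA1 and SPANXA2 were identical over the 250 bases before their starts, and SPANXA1 and SPANXC had 98.8% identity. The capitals mark the 2 bases that differ over 200 bases between SPANXA1 (chrX:141584739-141584938, minus strand) and SPANXC (chrX:141242518-141242717, minus strand).
SPANXA1: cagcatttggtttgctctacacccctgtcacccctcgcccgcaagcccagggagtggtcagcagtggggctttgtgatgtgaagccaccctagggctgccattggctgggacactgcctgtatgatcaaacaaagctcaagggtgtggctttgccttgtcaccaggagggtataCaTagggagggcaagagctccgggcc
SPANXC: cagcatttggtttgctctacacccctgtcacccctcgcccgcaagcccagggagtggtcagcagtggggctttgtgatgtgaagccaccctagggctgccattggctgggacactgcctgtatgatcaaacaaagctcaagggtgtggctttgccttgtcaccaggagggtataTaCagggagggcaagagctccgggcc
The other shared cancer-testis lists did not follow. Of 15 kept, 1 passed (6.67%, against 1.06% of all kept probe sets) and 3 had an unadjusted p under 0.05 (20%, against 13.2%), all of them SPANX. The GAGE lists differed by -0.71 and -0.46, and the bright XAGE1A and XAGE1B probe set by -0.06. MAGEA6 with MAGEA3 differed by 0.46, with overlapping groups (limma adjusted p = 0.533). The match by the letters of the symbol gave 29 kept probe sets that list 1 such symbol alone. Not all of these need be cancer-testis genes. None passed the limma test, and 5 had an unadjusted p under 0.05 (17.2%, against 13.2% of all kept probe sets).

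Hosts of small RNAs formed the second largest class, with 289 kept probe sets, and 1 passed. A probe set for a host reads the host's long transcript and says nothing of the mature small RNA. MIR6778 lies within SHMT1, which encodes the cytosolic enzyme that moves a carbon unit from serine to folate. Probe set 209980_s_at read 7.67, 7.89 and 7.94 against 8.63, 8.59 and 8.61 and rose by 0.78 ± 0.142 (SE, limma adjusted p = 0.0221), with an SD of 0.0215 among the knockdown arrays. The second probe set of this pair, 224954_at, overlapped at 9.37, 9.58 and 9.16 against 9.32, 10.00 and 9.82 (0.35, 0.416). SHMT1 alone, 231701_s_at, read 5.51, 5.36 and 5.37 against 6.07, 5.96 and 5.88 (0.56, 0.517). Only its MYOSIN10 shRNA arrays were at or above the filter value (5.56 to 5.66 by array), so it had to differ upward. Another SHMT1 probe set, 217304_at, did not pass the filter, at 4.87 to 5.71. The call of 209980_s_at held without scramble array 2 (0.0124) and ended without any other array (0.0568 to 0.121). The mature microRNAs of this locus are printed with the seed, bases 2 to 8, in capitals.
hsa-miR-6778-5p: aGUGGGAGgacaggaggcaggu
hsa-miR-6778-3p: uGCCUCCCugacauuccacag
No other microRNA listed by a kept member had either seed, among 185 mature sequences of the 116 listed microRNA symbols (of 127) that RefSeq matched.

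The largest negative difference among hosts was that of MIR424 with its host MIR503HG. Probe set 228235_at read 7.26, 6.86 and 6.63 against 6, 4.38 and 5.97 (-1.46 ± 0.417 SE, limma adjusted p = 0.133). The groups did not overlap, and MYOSIN10 shRNA array 2 was lowest. The second such probe set, 229784_at, differed by -0.35 (0.580), and 227488_at, which adds MIR503, by -0.28 (0.861).
hsa-miR-424-5p: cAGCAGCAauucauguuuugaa
The seed AGCAGCA is shared by miR-15a-5p, miR-195-5p and miR-497-5p, whose hosts are also members. DLEU2, the host of MIR15A, differed by -0.39 (1563229_at) and, listed with DLEU2L, by -0.43 (215629_s_at), and MIR497HG, the host of MIR497 and MIR195, by -0.40 (230353_at). The seed was chosen by the difference of 228235_at, so the sign of that probe set was fixed beforehand. All 6 host probe sets of this seed differed by less than 0, and none passed (limma adjusted p 0.133 to 0.861). They come from the hosts MIR503HG, DLEU2 and MIR497HG alone, and probe sets of the same host are not independent. The groups overlapped in 215629_s_at, 227488_at, 229784_at and 230353_at. Over all 1240 kept shared probe sets, 639 differed by more than 0.

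Over all 289 hosts, those above included, 44 had an unadjusted p under 0.05 (15.2%, against 13.2% of all kept probe sets). PER1 of the circadian clock with MIR6883 differed by 0.83 (202861_at, limma adjusted p = 0.0943) and PURB with MIR4657 by 0.55 (227718_at, 0.0659). The second PER1 probe set, 36829_at, differed by 0.43, and the other 3 of PURB by 0.49 (235711_at), -0.18 (225120_at) and -0.22 (226762_at). The snoRNA host RABGGTB, a subunit of the enzyme that attaches lipids to RAB proteins, read 12.77, 12.92 and 12.82 against 13.08, 13.11 and 13.16 (209181_s_at, 0.28, 0.0977), while its second probe set, 213704_at, differed by -0.03 (0.947). The growth-arrest transcript GAS5 had 4 probe sets, of which 228238_at differed by -0.51 (0.101), 224741_x_at and 224841_x_at by -0.07 and 227517_s_at by -0.11.

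A dim call was LRRC3 with LRRC3DN, a leucine-rich repeat gene and a symbol that RefSeq now gives as its synonym. Probe set 232536_at read 6.37, 6.49 and 7.05 against 5.12, 5.11 and 4.45, at the 12th signal percentile of the kept probe sets. All 3 scramble arrays and 0 of the 3 MYOSIN10 shRNA arrays were at or above the filter value (5.56 to 5.66 by array), so it was tested only through the group where it was high and had to differ. The difference was -1.74 ± 0.364 (SE, limma adjusted p = 0.0442), and with no filter the adjusted p was 0.106. The probe set that lists LRRC3 alone, 221017_s_at, was below the filter at 4.40 to 4.71 on all arrays. The call held without scramble array 2 (0.0437) and ended without any other array (0.0589 to 0.267).

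By the kind of genes listed, same-root paralogues had 6 calls in 362 kept probe sets (1.66%, 4 higher and 2 lower), against 1.06% of all kept probe sets. Lists of the class other had 6 in 240 (2.5%), all higher. Genes with a pseudogene or an unnamed LOC entry had 1 in 126 (0.794%) and small RNA hosts 1 in 289 (0.346%). Repeated probe sets enter these counts: 3 same-root calls list HSPA1A and HSPA1B, and 3 calls of the class other list FBXO16 and ZNF395. Readthroughs (193 kept) and antisense or overlapping transcripts (30 kept) had 0 calls by limma. An unadjusted p under 0.05 was reached by 21 and 6 of them (10.9% and 20%, against 13.2% of all kept probe sets). Genes that neighbour each other on a chromosome accounted for 12 of the 14 calls, and for 791 of the 1240 kept probe sets. Lists whose genes lie on different chromosomes had 0 calls in 195, with 24 (12.3%) at an unadjusted p under 0.05. Lists of 4 or more symbols had 0 calls in 136, with 13 (9.56%) at that level. The same-root class was assigned from the symbols. Its 2 lower calls were KRTAP2-3 with KRTAP2-4 and LRRC3 with LRRC3DN, and RefSeq gives the latter symbols as 1 gene, not paralogues. No test compared these classes.

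**Figure D3:**
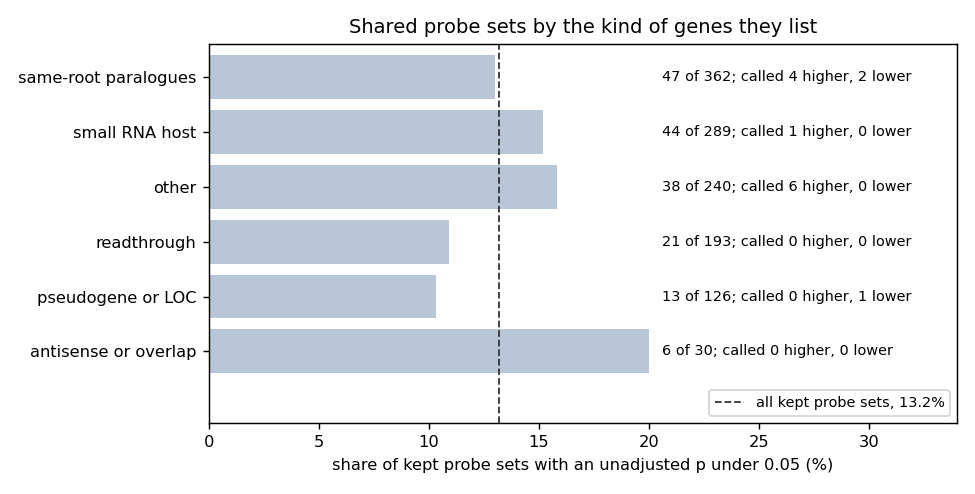
Share of kept shared probe sets with an unadjusted p under 0.05 (%), by the kind of genes listed, with the counts called higher and lower beside each bar. The bars run from 10.3% for lists with a pseudogene or LOC entry to 20.0% for the 30 antisense or overlap lists, around the dashed line at 13.2% for all kept probe sets.

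In the classes without a call, the smallest p-values belonged to the following genes. SOD2, the mitochondrial superoxide dismutase, with SOD2-OT1 (221477_s_at) read 8.62, 8.65 and 8.47 against 8.17, 7.44 and 7.91 (-0.74, limma adjusted p = 0.0857), while the other 2 of that list differed by -0.21 (216841_s_at, 0.372) and 0.11 (215223_s_at, 0.827). The probe set that lists SOD2 alone, 1566342_at, differed by 0.06 (0.888). RPL7L1 with WAC-AS1, which lie on different chromosomes, differed by 0.24 (225515_s_at, 0.202). The readthrough TMEM256-PLSCR3 with PLSCR3, a mitochondrial scramblase, read 7.34, 7.90 and 7.09 against 8.33, 8.34 and 8.04 (218828_at, 0.80, 0.1), and its second probe set, 56197_at, differed by 0.00 (0.994).

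Just outside the threshold stood LSP1P4 with LSP1P5 (214110_s_at, 0.60, limma adjusted p = 0.0502, beside 0.02 in 242133_s_at), GTF2H2 with its copies GTF2H2B and GTF2H2C (223758_s_at, -0.39, 0.0505) and TMSB15B with TMSB15A (214051_at, -0.61, 0.0511). GTF2H2 is a subunit of the repair and transcription factor TFIIH, and the TMSB15 genes encode a thymosin that binds actin monomers. Just inside were LRRC3 (0.0442) and KRT34 (0.0412). With the adjustment made within the shared probe sets alone, 17 were called, 12 higher and 5 lower.

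Where several probe sets carried the same gene list, their differences often went both ways. Of 260 such lists with 2 or more kept probe sets (708 probe sets), 128 had all differences of the same sign. In 2 lists more than 1 probe set was called, HSPA1B with HSPA1A and FBXO16 with ZNF395. In 4 lists an unadjusted p under 0.05 occurred in both directions. AGO2, the slicing Argonaute of RNA interference, with CASC7 was such a list: 213310_at read 9.87, 10.46 and 10.03 against 10.60, 10.61 and 10.61, while 225569_at read 10.37, 10.58 and 10.50 against 9.94, 10.28 and 10.01. The first differed by 0.48 and the second by -0.41, each without overlap and each with a limma adjusted p of 0.122.

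The H2AC list of 6 replication-dependent histone genes gave 0.67 (214542_x_at, limma adjusted p = 0.173) and -0.58 (207156_at, 0.194), also without overlap. The other 2 lists were NUDT4 with its copies (206303_s_at -0.38, 212181_s_at 0.27) and the snoRNA host SNHG7 (1552729_at 0.35, 229050_s_at -0.21). None of these probe sets passed. Histone lists as a whole had 0 calls by limma in 23 kept probe sets. An unadjusted p under 0.05 was reached by 5 (21.7%, against 13.2% of all kept probe sets).

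**Figure D4:**
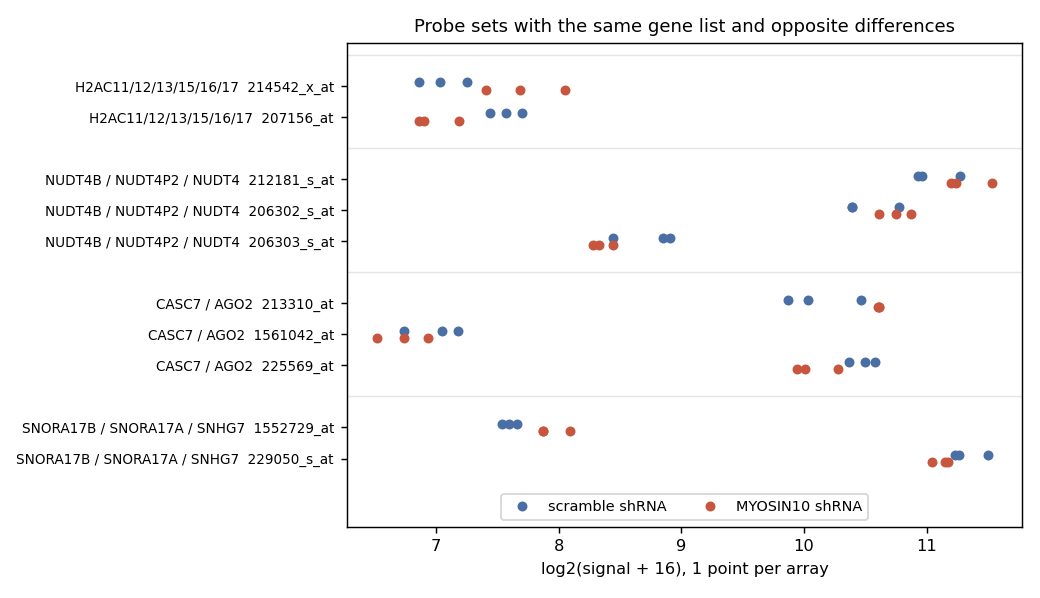
Log2(signal + 16) on each array for the 4 gene lists whose probe sets had an unadjusted p under 0.05 in both directions, 1 point per array. For AGO2 with CASC7 and for the H2AC genes, the MYOSIN10 shRNA arrays lie above the scramble arrays in 1 probe set and below them in another.

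A comparison with the own probe sets of the listed genes was possible for 583 of the 1240. The own probe set taken was the brightest kept one that lists 1 of the genes alone. The median absolute gap between the shared and the own log2 difference was 0.184. Of 81 shared probe sets with an unadjusted p under 0.05, 59 had an own probe set of the same sign. Of the 14 called, 8 had an own probe set, 7 with the same sign, and in 4 the own probe set was called too (the 3 of FBXO16 with ZNF395, and THRIL with BRI3BP). Among the 7, SHMT1 231701_s_at passed the filter through the MYOSIN10 shRNA arrays alone, so its sign was fixed beforehand. A shared probe set and its own probe set come from the same arrays and are not independent.

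**Figure D5:**
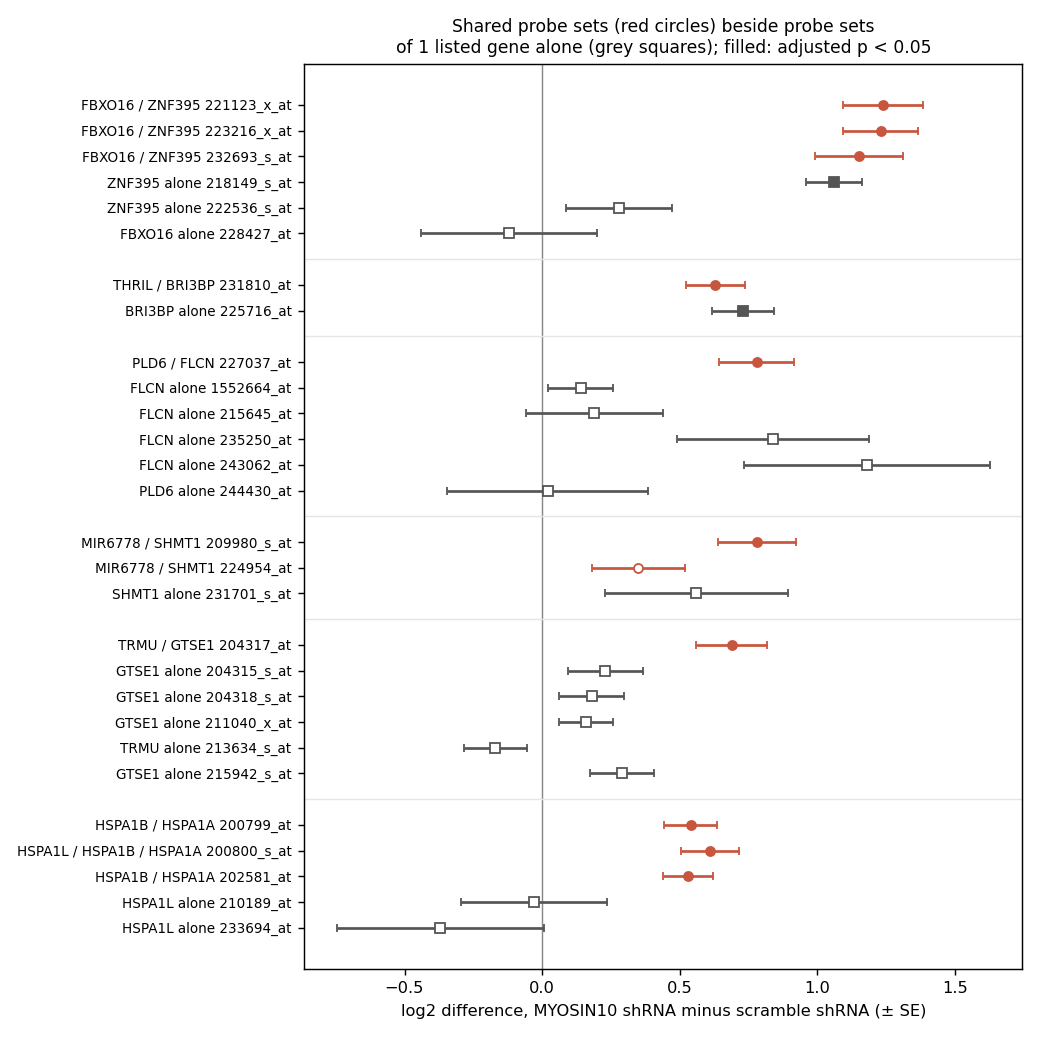
Log2 difference, MYOSIN10 shRNA minus scramble shRNA, with its SE (n = 3 per group), for called gene lists (red circles) and for probe sets of 1 listed gene alone (grey squares), with filled symbols at a limma adjusted p under 0.05. ZNF395 and BRI3BP have a filled square beside the shared circles, while the squares of FLCN, PLD6, GTSE1, TRMU, SHMT1 and HSPA1L are open.

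In 5 shared probe sets the own probe set was called and the shared one was not. Of these, 4 list MCAM, a cell adhesion molecule of the melanoma and endothelial surface, with MIR6756. The MCAM probe set 209087_x_at differed by 0.65, and the shared ones 209086_x_at, 210869_s_at, 211042_x_at and 211340_s_at by 0.23, 0.31, -0.08 and 0.35. The fifth lists NLK, a kinase of Wnt signalling, with LOC102724517 (238624_at, -0.04), while NLK alone differed by -0.73 (222589_at).

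Several gene families with shared probe sets had no call. Ribosomal protein lists (68 kept, median log2 signal 14.58) had 0 calls by limma. An unadjusted p under 0.05 was reached by 3 (4.41%, against 13.2% of all kept probe sets). Translation and elongation factors (16 kept), actins (10) and HLA (5) had 0 calls and 0 with an unadjusted p under 0.05. The ACTG1 and ACTB probe set 221607_x_at, among the brightest, read 15.12, 15.05 and 15.28 against 15.26, 15.16 and 15.33. HLA-DQA1 with HLA-DQA2 (212671_s_at) spread widely within groups, at 10.38, 8.06 and 10.36 against 9.69, 8.54 and 9.31, with both arrays numbered 2 lowest. The dim immunoglobulin kappa probe set 221651_x_at, a gene of plasma cells, read 5.97, 6.70 and 7.16 against 5.15, 5.71 and 4.89 (-1.36, limma adjusted p = 0.127) at the 16.8th signal percentile. The other kept probe sets of that list, 214836_x_at and 224795_x_at, differed by 0.56 and 0.13 with overlap (0.567 and 0.848). Zinc finger lists (42 kept) had 3 calls (7.14%, against 1.06% of all kept probe sets), all of ZNF395.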

How the data were processed

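Each of 6 samples was hybridised to a 1-colour array of biotin-labelled cRNA from a 3' IVT kit, per the labels' protocols. The deposited values are log2 signals (read from the values), and the submitters' processing notes name MAS5; the sources used here give no version, scaling target or floor. Here 16 was added to the linear signal before log2, which understates changes of dim probe sets. Probe sets at or above the 40th percentile of their array on at least 3 of 6 arrays were tested with limma 3.58.1 in R 4.3.3 (lmFit, eBayes with a variance trend, group only, two-sided), with Benjamini-Hochberg adjustment over all 33370; called means under 0.05.

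Symbols came from the platform annotation, arrangement and current names from RefSeq. Classes were assigned from the symbols in the order readthrough, small RNA host, antisense, same root, pseudogene or LOC, other; a pseudogene needed that RefSeq biotype. Members, families and lists were chosen with earlier results of these data known. Named were all called members, up to 2 members with the smallest p in classes or families without a call, and their own probe sets; those just outside the threshold, MCAM, NLK, opposed lists and other small RNA hosts were chosen after their values were seen. The code was tested on simulated data. Alignments used Biopython 1.88 and figures matplotlib 3.10.9 in Python 3.11.15. The number of arrays limits precision.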

Additional observations from a re-analysis of the deposited data

How the results depend on the processing

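None of the 14 called probe sets changed sign under any alternative, and the median difference ran from -0.0083 to 0.0167. The count of 14 called shared probe sets was 13 and 17 with 1 or 64 added, 17 with a 60th percentile filter, 14 after quantile normalization, 16 after median centring, 14 without the AFFX controls (chosen after seeing the data), 13 over lists of 2 or more current genes and 11 without _x_at probe sets. It was 7 with no filter (0.389%, against 0.316% of all probe sets called) and 32 with array weights (2.58% against 2.84%). Without both arrays numbered 2 it was 57 (4.6% against 4.96%). With 1 or 64 added these shares were 1.05% against 0.935% and 1.37% against 1.28%. With the 60th percentile filter they were 1.83% against 2.12%, after quantile normalization 1.13% against 1.03% and after median centring 1.29% against 1.12%. Without the variance trend limma called 0 shared probe sets, and 0 of all 33370, with 8.55% and 11% at an unadjusted p under 0.05. Leaving out 1 array gave 4 to 52 (0.323% to 4.19%, against 0.177% to 4.39% of all kept probe sets). Classes with a call numbered 4, then 2 with no filter, 0 without the trend and 2 to 6 without 1 array. Families with a call numbered 4, then 0 without the trend, 10 without both arrays numbered 2 and 2 to 9 without 1 array. With the replicate block the count was 32 (2.58%, against 2.67% of all kept probe sets), in 6 classes and 6 families. Deviations of same-numbered arrays correlated at 0.0328, 0.118 and 0.0132. These values cannot show whether same-numbered samples were paired, and the sources used here do not say. Of the 14 called, 4 stayed called without any single array.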
